A study of Rattus norvegicus with 32 samples.

Results

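Nitric oxide synthesis and arginine metabolism were followed in the rat left ventricle through 10 genes, Nos1, Nos2, Nos3, Gch1, Ass1, Arg1, Arg2, Odc1, Gucy1a2 and Gucy1b3. The genes were picked with earlier results of these data known, and their probes were then found by name: every probe whose gene name, in either annotation version of the scanner files, was one of these was taken, which gave 13 of 45598 probes and 10 of 27963 named genes. Nitric oxide synthases turn arginine into nitric oxide and citrulline with tetrahydrobiopterin as a cofactor. Arginases take the same arginine to ornithine, from which ornithine decarboxylase starts polyamine synthesis, while argininosuccinate synthase rebuilds arginine from citrulline. Nitric oxide binds soluble guanylate cyclase, whose product cyclic GMP relaxes vascular smooth muscle, and the inducible synthase is known for its part in the fall of vascular tone in septic shock.

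The ventricles came from male and female Wistar rats aged 9 to 12 weeks and were frozen 20 h after surgery. In each sex, 5 rats had sham surgery, 5 had cecal ligation and puncture (CLP), a model of abdominal sepsis, and 6 had CLP plus landiolol, a short-acting blocker of the β1-adrenoceptor. Landiolol was infused at 0.1 mg per kg per min from 1 h after CLP in saline without antibiotics, and the sham and CLP rats received saline. Every rat had buprenorphine, and every heart was imaged in the rat and then perfused outside the body before it was frozen, so no group is an untouched heart. The rats had already served in an earlier study, and the arrays cover only those whose RNA was of sufficient quality.

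Each RNA sample was hybridised to 1 single-colour Agilent array, and a level below is the log2 of its quantile-normalised signal on that array. Between 34920 and 43155 of the 58717 spots of an array were marked well above background by the scanner software, and no spot was saturated. The number of arrays limits the precision. Each sex had 2 slides of its own, so sex and slide cannot be told apart in a level. Cardiomyocyte markers were high on every array, with a summed log2 signal of 20.77 to 21.18 over 8 probes, and none of the 8 passed the test in either sex. Female CLP replicate 5 had the lowest number of spots above background of its group (36151), and it held the lowest female CLP level of Arg1, Ass1 and Gucy1b3. It is named here in part for those levels. By number of spots it was not alone. Male CLP plus landiolol replicate 5 had the lowest number of all arrays (34920), and female CLP plus landiolol replicates 3 and 4 had 36332 and 36433.

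The probes are shown for the genes whose reading turns on where the probe lies, which are Arg1, Nos2 and Nos1. Each line gives the first 30 of the 60 bases of a probe, all in lower case because no part is marked, and positions are those of build rn4 in the scanner files. The Arg1 probe lies at chr1:21011150-21011209 on the plus strand. The Nos2 probes lie 2151 bases apart on the plus strand, the reporting probe at chr10:65070156-65070215 and the other at chr10:65072307-65072366. The Nos1 probes lie 58685 bases apart on the minus strand, the reporting probe at chr12:39869608-39869667 and the other at chr12:39810923-39810982. The scanner files do not say whether a probe lies in an exon, an intron or a UTR.
Arg1 probe: aggagttaaaatacacagtgatgtcaagtg
Nos2 reporting probe: gtggccgccaagctgaacttgagtgaggag
Nos2 other probe: ttacagcatctggccctaaataaaatgaca
Nos1 reporting probe: tcagacacggcaaacctccagtcttcctga
Nos1 other probe: cttccgaagcttctggcaacagcgacaatt

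Of the 10 genes, Arg1 in male rats was the one that passed the test in a comparison. It fell 3.04-fold in CLP vs sham. The test was limma across all probes. Calls against sham were made at an FDR of 1%, and calls between the 2 septic groups at 5%. A gene was tested if, in any 1 group, 80% or more of the arrays had its probe well above background, which held for 7 of the 10 genes in males and 8 in females. In males, 1 of 7 passed as lower and 0 as higher in CLP vs sham, where 4.71% of 16470 genes were lower and 4.18% higher. In CLP plus landiolol vs CLP none of the 7 passed, against 1.03% of genes higher and 0.741% lower, and in CLP plus landiolol vs sham none passed, against 2.75% higher and 2.08% lower. In females 0 of 8 passed in each comparison. The share of 16209 genes that was higher and lower was 2.14% and 2.07% in CLP vs sham, 0.0617% and 0.037% between the septic groups, and 3.41% and 2.59% in CLP plus landiolol against sham. At an unadjusted p under 0.05 in CLP vs sham there were 7445 of 25864 probes tested in males and 5858 of 25394 in females.

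**Figure D1:**
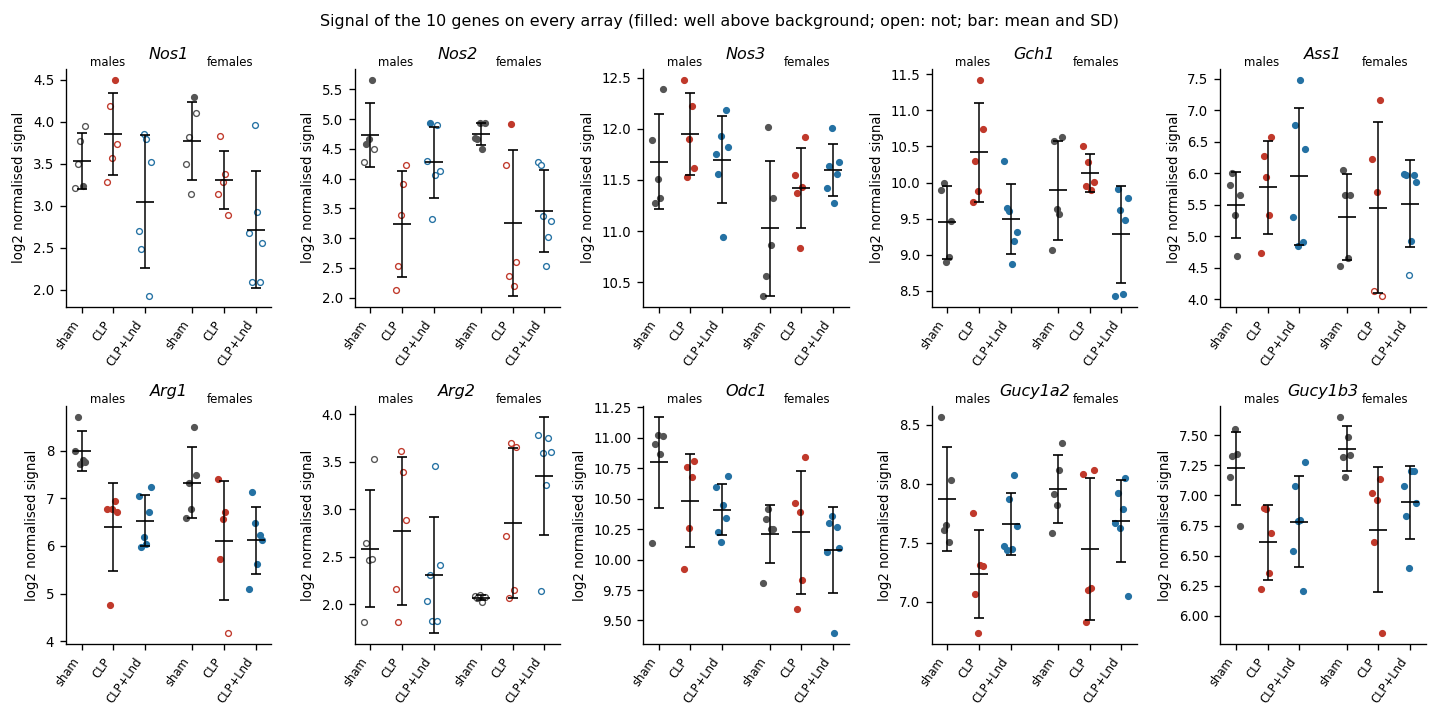
Log2 normalised signal of the reporting probe of each of the 10 genes on every array, by group and sex (5 sham, 5 CLP and 6 CLP plus landiolol arrays a sex), with bars for the mean and SD; filled points are well above background and open points are not. Arg1 in males shows sham arrays from 7.72 to 8.71 and CLP arrays from 4.76 to 6.95, with no overlap, while the points of Arg2 are all open.

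The median log2 change of the genes tested in males was -0.31 in CLP vs sham, where that of all genes was -0.015, and 0.14 between the septic groups, where all genes had 0.0174. In females these medians were -0.25 and 0.12, beside -0.0192 and 0.0264 for all genes. The medians are over the genes that passed the filter, not over all 10.

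**Figure D2:**
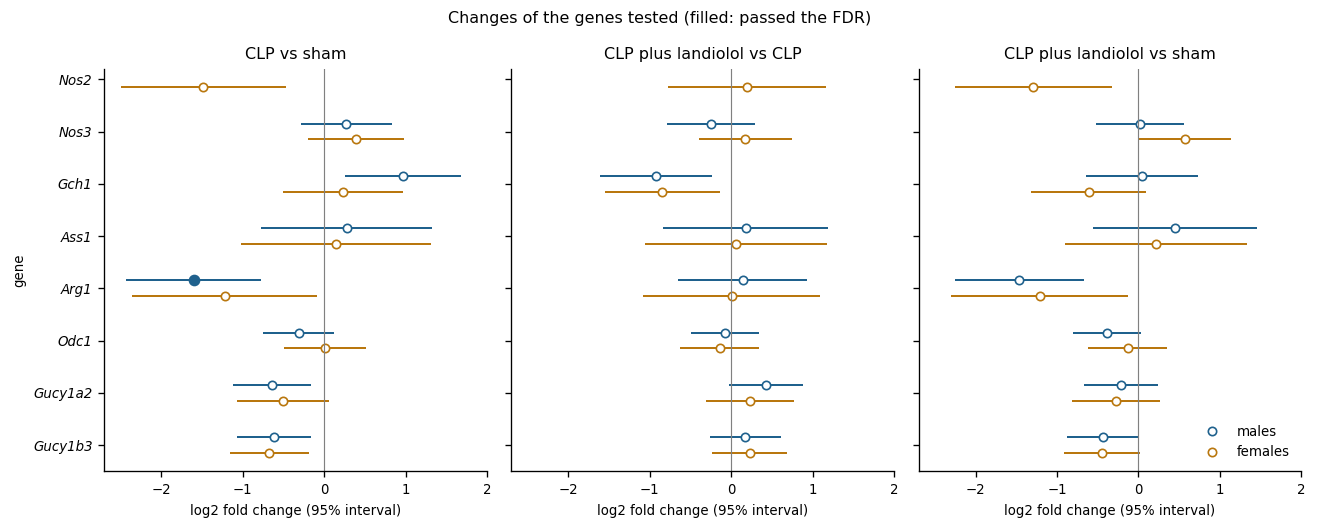
Log2 fold change of each tested gene in the 3 comparisons, with 95% intervals from limma, males in blue and females in ochre; a filled point passed the FDR. Arg1 in male CLP vs sham, at -1.60, is the filled point, and Nos2 has a female value alone because it was not tested in males.

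The 3 nitric oxide synthases differed in whether they could be read at all. Nos2, the inducible synthase of macrophages and other cells exposed to endotoxin and cytokines, was dim, being well above background on 4 of 16 male and 6 of 16 female arrays. In male sham hearts its levels were 4.28, 4.59, 4.66, 5.66 and 4.49, of which 3 were well above background, and in male CLP hearts they were 2.14, 2.53, 3.40, 3.91 and 4.23, none of them well above background. Sham and CLP males did not overlap, as was the case for 13.5% of all genes tested in males. Against the lowest signal well above background, the sham mean was 1.98-fold brighter. That mean includes sham arrays not well above background, so 1.98-fold is not a lower bound. Nos2 was not tested in males. With landiolol the 6 male levels ran from 3.33 through a median of 4.21 to 4.94, overlapping with CLP, and 1 of the 6 was well above background, so no fold is given for landiolol vs CLP.

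In females, Nos2 was well above background on 5 of 5 sham arrays, on 1 of 5 CLP arrays and on 0 of 6 landiolol arrays. The sham levels were 4.68, 4.67, 4.93, 4.51 and 4.93, which is a narrow range, and the CLP levels were 4.23, 2.36, 4.91, 2.20 and 2.60. One CLP heart thus lay within the sham range and the other 4 below it. Nos2 entered the female test through its sham arrays alone, the group in which it was brightest, and a filter on 80% of all female arrays removed it. The fitted changes from sham therefore rest mostly on septic signals under the background limit. That in CLP was -1.48 (SE 0.47, 95% interval -2.48 to -0.49) with an adjusted p of 0.0609 in limma, and the 2 slides gave -2.57 and -0.67. Landiolol hearts ran from 2.53 through 3.33 to 4.28, all below the lowest sham heart, as for 10.9% of all genes. With this processing the bound for landiolol vs sham was at least 1.54-fold brighter in sham. The adjusted p of that comparison was 0.0726 in limma, and 0.00232 in SAM, the permutation test of the study, with 100 permutations drawn on the same dim signals.

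The size of the Nos2 difference rested on how dim signals were treated. After normexp background correction with an offset of 50 the female changes from sham were -0.27 in CLP and -0.32 with landiolol, and in the table that the authors deposited both lay near 0, at 0.0006 and -0.0047. With slide row as a term, CLP plus landiolol vs sham was 0.15, all female sham arrays having been in row 1 and all female landiolol arrays in row 2. The other Nos2 probe was well above background on 1 of 32 arrays, a male sham array. Its male means were 3.22 in sham, 2.75 in CLP and 3.08 in CLP plus landiolol, and sham and CLP males overlapped. Its female means were 3.58 in sham, 2.45 in CLP and 2.47 in CLP plus landiolol, all not well above background.

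Of 9 macrophage and monocyte markers tested, 4 were higher in male and 3 in female CLP vs sham, beside 4.18% and 2.14% of all genes. Among them was Adgre1, a macrophage surface receptor, at 6.90-fold and 6.91-fold, the largest change of the list. The log2 changes of the list reached down to -0.83 in males and -0.97 in females, though 0 markers passed as lower. The summed log2 signal of these markers was 13.57 to 14.04 in male sham, 14.96 to 15.52 in male CLP and 14.56 to 15.50 in male CLP plus landiolol hearts, and in females 13.92 to 14.48, 14.98 to 15.64 and 14.91 to 15.65. Of 9 neutrophil markers, 3 were tested in males and 4 in females. In males 2 passed as higher and 1 as lower in CLP vs sham, with changes from -1.42 to 4.18. In females 1 passed as higher and 1 as lower. Of all genes, 4.71% were lower in male and 2.07% in female CLP vs sham. In CLP vs sham S100a8 was higher in both sexes and Ncf1, a subunit of the phagocyte oxidase, was lower in both, while Mmp8 did not reach that mark on any sham or CLP array. The summed signal of the neutrophil markers adds linear signals, so the brightest probe weighs most, and it does not show the direction of most of them. It was 12.54 to 13.56 in male sham, 11.28 to 12.49 in male CLP and 12.10 to 12.97 in male CLP plus landiolol hearts. In females it was 12.45 to 13.28, 10.95 to 12.53 and 11.46 to 12.50. The part of these cells in the levels of Nos2 and Arg1 was not tested. In whole ventricle, fewer cells of a type and less RNA per cell cannot be told apart.

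Nos1, the neuronal synthase, which cardiomyocytes also carry, was at the limit of the array. Its reporting probe was well above background on 2 of 16 male arrays, a sham array at 3.23 and a CLP array at 4.50, and on 1 of 16 female arrays, a sham array at 4.30. The male levels ran from 3.21 to 3.95 in sham, 3.29 to 4.50 in CLP and 1.93 to 3.85 with landiolol, and the female ones from 3.14 to 4.30, 2.89 to 3.83 and 2.09 to 3.96. The groups overlapped in both sexes and the gene was not tested. The other Nos1 probe was well above background on none of the 32 arrays. The 60 bases of the reporting probe match 59 bases of RefSeq build GRCr8 with 1 mismatch, from 183 to 124 bases before the start that RefSeq gives for Nos1 and on the same strand.

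Nos3, the endothelial synthase, was bright on every array and passed in no comparison. Male levels were 11.89, 11.28, 11.51, 11.33 and 12.39 in sham and 12.48, 11.53, 11.90, 12.23 and 11.62 in CLP, and the landiolol hearts ran from 10.94 through 11.79 to 12.19. The 3 male groups overlapped throughout, with a CLP vs sham change of 0.27 (SE 0.26, adjusted p = 0.551). Female levels were 10.37, 10.56, 12.02, 10.87 and 11.32 in sham, 11.55, 11.37, 10.84, 11.43 and 11.92 in CLP, and 11.27, 11.60 and 12.01 as lowest, median and highest with landiolol. Of the 5 female sham hearts, 3 lay below the lowest landiolol heart, and CLP plus landiolol vs sham was 0.57 (SE 0.26, 95% interval 0.01 to 1.12, adjusted p = 0.175). Over the alternatives this female change ran from 0.14 to 0.82, with an adjusted p (limma or SAM) of up to 0.95. Slide row and group cannot be told apart in this comparison. Endothelial markers, summed over 9 probes, were 15.66 to 16.18 in male sham, 15.77 to 16.24 in male CLP and 15.98 to 16.61 in male CLP plus landiolol hearts, and in females 15.24 to 16.02, 15.33 to 16.27 and 15.73 to 16.13. The female means of this sum were 15.53 in sham, 15.73 in CLP and 15.96 in CLP plus landiolol, the order in which the female Nos3 means also stood. In males the order differed. There the means of the sum were 15.90, 16.01 and 16.21, and those of Nos3 were 11.68, 11.95 and 11.70. Of the 9 markers, 1 was lower in CLP vs sham in each sex, beside 4.71% of all genes in males and 2.07% in females. In female CLP plus landiolol vs sham 1 was higher, beside 3.41% of all genes. The part of these markers in the Nos3 level was not tested.

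Known partners of the synthases were read from 8 genes, all of them tested, and Nos1ap and Cav3 passed. Nos1ap encodes an adaptor that binds the neuronal synthase and is known in cardiology for its link to the QT interval. Its male levels were 5.67, 5.71, 4.77, 4.92 and 5.66 in sham, 7.21, 8.57, 7.88, 8.95 and 8.54 in CLP, and 5.90, 6.86 and 7.10 as lowest, median and highest with landiolol. No male CLP heart overlapped with a sham or a landiolol heart. Among all genes, 13.5% did not overlap in male CLP vs sham and 2.58% in CLP plus landiolol vs CLP. Nos1ap rose 7.38-fold in male CLP vs sham (log2 change 2.88, SE 0.32, adjusted p = 3.83e-05, slides 2.20 and 3.63). This call held under all 12 other settings and without each array in turn, while its size ran from 1.82 to 3.15. Nos1ap was 2.93-fold lower with landiolol than in CLP (-1.55, SE 0.31, adjusted p = 0.0211, slides -0.94 and -2.32), with alternatives from -1.81 to -1.14. That call was lost without male CLP replicate 4 or 5, where the adjusted p reached 0.0708. It was also lost with only the groups compared (0.0551) and with the order of days as a term (0.06). That order was inferred from digits in the sample titles. Male CLP plus landiolol vs sham was 1.34 with an adjusted p of 0.0118, and female CLP vs sham was 1.08 with 0.097, neither of which passed.

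Cav3, the caveolin of muscle cells that holds synthases at caveolae, was lower in septic males. Its levels were 13.94, 14.05, 14.04, 14.01 and 14.03 in male sham and 13.51, 13.50, 13.44, 13.24 and 13.12 in male CLP hearts. Landiolol hearts ran from 13.14 through 13.54 to 13.61, so that all 11 septic males lay below all 5 sham males. Septic and sham males did not overlap for 13.5% of all genes in CLP and 8.82% with landiolol. Cav3 fell 1.57-fold in CLP vs sham (log2 change -0.65, SE 0.12, adjusted p = 0.00134, slides -0.51 and -0.85) and 1.48-fold in CLP plus landiolol vs sham (-0.57, SE 0.11, adjusted p = 0.00421, slides -0.67 and -0.46). The first call held without each array, and the second was lost without male sham replicate 2, 3, 4 or 5 or landiolol replicate 3, with an adjusted p of up to 0.0123. In females the changes were -0.43 (adjusted p = 0.0463) and -0.44, not past the 1% level. Cav1, the caveolin of endothelium, had -0.79 in males (adjusted p = 0.0175) and -0.52 in females (0.0585), and passed in neither.

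Gch1, GTP cyclohydrolase I, makes the first intermediate of tetrahydrobiopterin and sets its rate of synthesis. Male levels were 9.90, 9.9996, 8.90, 8.97 and 9.47 in sham and 9.74, 10.30, 9.88, 11.42 and 10.75 in CLP. Landiolol hearts ran from 8.88 through 9.47 to 10.30, and the groups overlapped, with 3 of the 5 CLP hearts above every sham heart. The CLP vs sham change was 0.97 (SE 0.33, 95% interval 0.26 to 1.67, adjusted p = 0.0595) and that of CLP plus landiolol vs CLP was -0.92 (SE 0.32, 95% interval -1.60 to -0.25, adjusted p = 0.178). Neither passed, and the slides differed: CLP vs sham was 0.02 on one and 1.97 on the other, and landiolol vs CLP was -0.12 and -1.95.

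In females the Gch1 levels were 9.07, 10.58, 9.63, 9.56 and 10.64 in sham and 10.51, 9.96, 10.29, 9.90 and 10.01 in CLP, and landiolol hearts ran from 8.43 through 9.55 to 9.91. CLP hearts lay within the sham range, and 5 of the 6 landiolol hearts lay below all CLP hearts. CLP vs sham was 0.24 (adjusted p = 0.746) and CLP plus landiolol vs CLP was -0.85 (SE 0.33, 95% interval -1.54 to -0.16, adjusted p = 0.41), with -0.75 and -0.88 on the slides. The other 6 genes of tetrahydrobiopterin synthesis and recycling, among them Spr and Qdpr, were all tested, and none passed in any of the 6 comparisons, with male CLP vs sham changes from -0.37 to 0.70.

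Ass1, argininosuccinate synthase, makes the precursor from which arginine is rebuilt. Male levels were 5.82, 6.01, 5.33, 4.68 and 5.65 in sham, 4.74, 6.28, 5.95, 5.33 and 6.57 in CLP, and 4.85, 5.85 and 7.48 as lowest, median and highest with landiolol. Female levels were 4.52, 6.05, 5.65, 4.66 and 5.65 in sham, 6.22, 4.13, 5.71, 7.17 and 4.05 in CLP, and 4.38, 5.92 and 5.98 with landiolol, and the 3 lowest of these, 2 in CLP and 1 with landiolol, were not well above background. The SD of each group exceeded every difference between groups of the same sex. CLP vs sham was 0.28 in males (SE 0.49, adjusted p = 0.782) and 0.15 in females (adjusted p = 0.916), or 0.50 without female CLP replicate 5 (0.608).

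Of 11 other genes of arginine supply and use, 7 were tested, and Slc3a2 passed in 1 comparison. Slc3a2 encodes the heavy chain that pairs with cationic and large neutral amino acid transporters. Its male levels were 9.89, 10.91, 10.69, 11.13 and 10.38 in sham and 11.43, 12.68, 13.54, 12.48 and 12.25 in CLP. These groups did not overlap, as for 13.5% of all genes. Landiolol hearts ran from 10.08 through 11.52 to 12.35, between and across both groups. Slc3a2 rose 3.67-fold in male CLP vs sham (log2 change 1.88, SE 0.42, adjusted p = 0.00594, slides 2.15 and 1.63). The call was lost without each of 8 arrays, sham replicates 1, 2, 3 and 5 and CLP replicates 2, 3, 4 and 5, with an adjusted p of up to 0.0175, and with no filter on dim probes (0.013). In females CLP vs sham was 1.44 with an adjusted p of 0.0537, and without female CLP replicate 5 it was 1.83 with 0.00742. The transporters Slc7a2 and Slc7a7 were too dim to test, and Slc7a1, the main carrier of arginine into most cells, had 0.55 in males (adjusted p = 0.192) and 0.02 in females.

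Methylarginines, which block the synthases, are broken down by Ddah1 and Ddah2. Of 4 genes of this group 3 were tested, and Ddah2 passed in 2 male comparisons. Its levels were 14.06, 13.66, 13.74, 13.57 and 14.14 in male sham hearts, 13.86, 13.06, 12.40, 12.64 and 12.61 in male CLP hearts, and 13.69, 13.87 and 14.03 as lowest, median and highest with landiolol. One CLP heart, replicate 1, lay within the range of the other groups and the other 4 lay below both. Ddah2 fell 1.89-fold in CLP vs sham (log2 change -0.92, SE 0.22, adjusted p = 0.00935, slides -0.75 and -1.19) and was 1.93-fold higher with landiolol than in CLP (0.95, SE 0.21, adjusted p = 0.0328, slides 0.84 and 1.16).

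Both Ddah2 calls stood near their level. The first was kept without male CLP replicate 1 (-1.16, adjusted p = 0.000141) and lost without each of the other 15 arrays, where the adjusted p reached 0.0287. It was lost with no filter (0.018), with only the groups compared (0.0403), with the row as a term (0.0157) and in SAM (0.011). The second was kept without male CLP replicate 1, landiolol replicate 4 or any sham array, and lost without each of the other 9, with an adjusted p of up to 0.11. It was lost with no filter (0.0618), with only the groups compared (0.0862) and with the order of days as a term (0.107). Female CLP vs sham was -0.41 with an adjusted p of 0.427.

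Arg1, the cytosolic arginase of liver and of some macrophages, was measured on all 16 male arrays. The levels were 8.00, 8.71, 7.72, 7.80 and 7.76 in male sham hearts and 6.78, 4.76, 6.79, 6.95 and 6.71 in male CLP hearts. Landiolol hearts read 5.99 at the lowest, 6.45 at the median and 7.23 at the highest. All 11 septic males thus lay below all 5 sham males, as septic and sham hearts did not overlap for 13.5% of genes in CLP vs sham and 8.82% in CLP plus landiolol vs sham. Arg1 fell by 1.60 on the log2 scale in CLP vs sham (SE 0.38, 95% interval -2.42 to -0.79, adjusted p = 0.00955), and the slides gave -2.25 and -0.93. CLP plus landiolol vs sham was -1.46 (SE 0.37, adjusted p = 0.0187), which did not pass the 1% level, with slides of -1.94 and -1.1. CLP plus landiolol vs CLP was 0.14 (adjusted p = 0.878).

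The Arg1 call sat at its threshold. The change ran from -1.74 to -1.07 over all alternatives, and the adjusted p from 0.00301 to 0.0272. It passed without male CLP replicate 2, the array at 4.76, where the change was -1.19 (adjusted p = 0.00859), and without landiolol replicate 6, and it was lost without each of the other 14 arrays, that is all 5 sham arrays, CLP replicates 1, 3, 4 and 5, and landiolol replicates 1 to 5. It was lost too with no filter (0.0198), with only the groups compared (0.024), with the slide (0.0146) and with the row (0.0149) as a term. CLP plus landiolol vs sham passed after normexp (-1.02, 0.00454), with only the groups compared (0.0071), in SAM (0.00106) and without male CLP replicate 2 (0.00179).

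**Figure D3:**
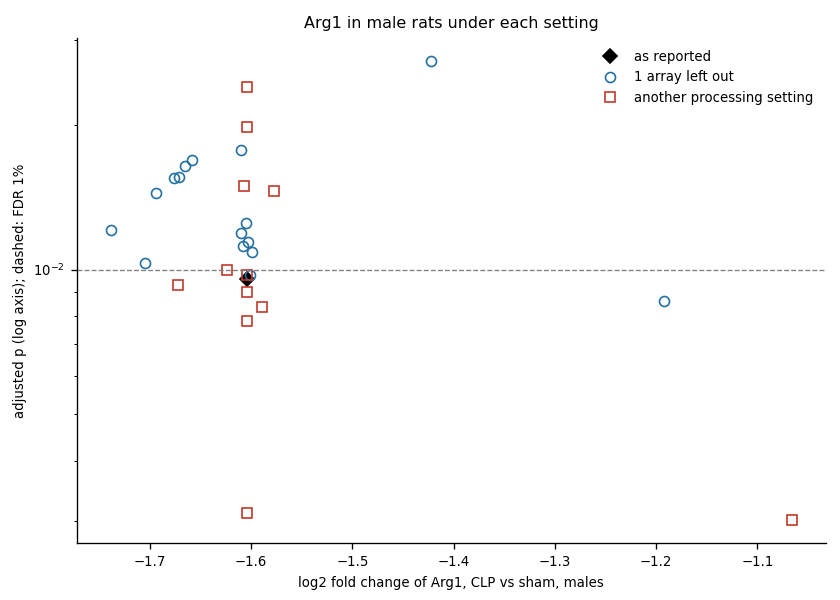
Log2 fold change of Arg1 in male CLP vs sham (x axis) and its adjusted p on a log axis (y axis) as reported, with 1 array left out (circles) and under other processing settings (squares); the dashed line is the 1% level. Every point lies below 0, from -1.74 to -1.07, and the points lie on both sides of the line.

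In females the Arg1 levels were 6.58, 7.32, 6.78, 8.50 and 7.49 in sham and 7.41, 5.72, 6.56, 6.71 and 4.17 in CLP, the last of which was not well above background. Landiolol hearts ran from 5.09 through 6.18 to 7.13. The groups overlapped, with 3 of the 5 CLP hearts below the lowest sham level of 6.58. CLP vs sham was -1.22 (SE 0.53, adjusted p = 0.175, slides -0.74 and -1.86) and CLP plus landiolol vs sham was -1.22 (SE 0.51, adjusted p = 0.134). Without female CLP replicate 5 the change in CLP vs sham was -0.73 (adjusted p = 0.326). With slide row as a term the change in CLP plus landiolol vs sham was -0.09 (adjusted p = 0.985).

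Some fibroblast markers were lower beside Arg1 in males. Of 6 tested, 4 fell in male CLP vs sham, Col1a1 (4.31-fold), Col1a2, Col3a1 and Lum, where 4.71% of all genes were lower. The male changes of the list ran from -2.11 to 0.87, so not all went down. None passed in female CLP vs sham, where the changes ran from -1.73 to 0.77 with a median of -1.07. The summed log2 signal of the 6 was 16.25 to 16.93 in male sham, 15.53 to 16.46 in male CLP and 15.79 to 16.57 in male CLP plus landiolol hearts. Of 6 red blood cell markers, 3 were tested in males and 4 in females. Slc4a1, the anion exchanger of red cells, was lower in CLP vs sham in both sexes, 9.53-fold and 7.77-fold, and was the one that passed. In that comparison 4.71% of all genes were lower in males and 2.07% in females. The haemoglobin genes tested had -0.02 (Hba1) and 0.17 (Hba2) in males and 1.65 (Hba1), 2.36 (Hba2) and 2.60 (Hbb) in females, with adjusted p values from 0.232 to 0.99. The summed red cell signal was 11.24 to 12.89 in male sham, 10.16 to 12.12 in male CLP and 10.71 to 13.15 in male CLP plus landiolol hearts, and in females 11.70 to 11.95, 10.82 to 16.81 and 10.53 to 13.40. The part of these cells in the Arg1 level was not tested.

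Arg2, the mitochondrial arginase, was well above background on none of the 32 arrays. Its levels ran from 1.81 to 3.61 in males, and in females from 2.02 to 2.10 in sham, 2.06 to 3.70 in CLP and 2.14 to 3.78 with landiolol. All 6 female landiolol values lay above all 5 sham values, a comparison in which 10.9% of all genes tested did not overlap. Both groups were under the background limit and no fold is given.

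Odc1, ornithine decarboxylase, was bright on every array. Male levels were 10.14, 10.95, 11.02, 10.87 and 11.02 in sham and 9.92, 10.76, 10.26, 10.67 and 10.81 in CLP, and landiolol hearts ran from 10.15 through 10.39 to 10.69. Of the 5 male sham hearts, 4 lay above every septic heart and 1 lay at the low end. CLP vs sham was -0.31 (SE 0.20, adjusted p = 0.336) and CLP plus landiolol vs sham was -0.39 (adjusted p = 0.226). Female levels were 9.80, 10.34, 10.42, 10.25 and 10.25 in sham, 10.46, 9.59, 10.39, 9.83 and 10.84 in CLP, and 9.40, 10.18 and 10.36 with landiolol, with a CLP vs sham change of 0.01 (adjusted p = 0.985). The other Odc1 probe, 1846 bases away, had -0.62 in males (SE 0.25, adjusted p = 0.101) and -0.33 in females (adjusted p = 0.262), so the 2 probes disagreed in sign in females, neither value passing.

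Polyamine synthesis, control and breakdown were covered by 10 further genes, all tested, and Paox and Amd1 passed. Paox, the peroxisomal oxidase that breaks acetylated polyamines down, was higher in CLP than in sham hearts of both sexes, and with landiolol it was higher than in sham in females. Female levels were 10.76, 11.23, 10.87, 11.13 and 10.91 in sham and 11.88, 11.97, 11.76, 11.77 and 11.81 in CLP. With landiolol they were 11.79, 11.86 and 12.07 as lowest, median and highest, so that no septic female overlapped with a sham female. The same held for 9.36% of all genes in CLP and 10.9% with landiolol. Paox rose 1.81-fold in female CLP vs sham (log2 change 0.86, SE 0.12, adjusted p = 0.000329, slides 1.02 and 0.64) and 1.88-fold in female CLP plus landiolol vs sham (0.91, SE 0.11, adjusted p = 0.000125). Both calls held without each array, and the second was lost with the row as a term (0.99, adjusted p = 0.0586).

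In males Paox was 11.66, 11.28, 11.47, 11.05 and 11.48 in sham and 11.96, 11.96, 12.01, 12.03 and 11.91 in CLP, a rise of 1.5-fold (log2 change 0.59, SE 0.14, adjusted p = 0.00927, slides 0.51 and 0.64). This call was kept without sham replicate 1, landiolol replicate 1 or landiolol replicate 5 and lost without each of the other 13 arrays, with an adjusted p of up to 0.025, and it was lost under 6 of 12 other settings. CLP males did not overlap with sham males, as for 13.5% of all genes. The landiolol males ran from 11.37 through 11.89 to 12.13 and overlapped with sham. Male CLP plus landiolol vs sham was 0.45 (SE 0.13) with an adjusted p of 0.0427, which did not pass the 1% level.

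Amd1, the decarboxylase that supplies the aminopropyl groups of spermidine and spermine, was lower in septic females. Its levels were 13.31, 12.63, 13.08, 13.03 and 13.31 in female sham and 12.56, 12.21, 11.97, 12.31 and 12.55 in female CLP hearts, and landiolol hearts ran from 11.91 through 12.15 to 12.45. All 11 septic females lay below all 5 sham females. Septic and sham females did not overlap for 9.36% of all genes in CLP and 10.9% with landiolol. Amd1 fell 1.68-fold in CLP vs sham (log2 change -0.75, SE 0.17, adjusted p = 0.00996, slides -0.97 and -0.47) and 1.86-fold in CLP plus landiolol vs sham (-0.90, SE 0.16, adjusted p = 0.00188, slides -0.87 and -0.85). The first call was kept without sham replicate 2 or CLP replicate 5 and lost without each of the other 14 arrays, with an adjusted p of up to 0.0303, and under 7 of 12 other settings. The second held without each array and was lost with the row as a term (-1.08, adjusted p = 0.165). Male CLP vs sham was -0.72 with an adjusted p of 0.0753. Srm, spermidine synthase, had 0.63 in males (adjusted p = 0.0173) and 0.60 in females (0.0591) and did not pass.

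Gucy1a2 and Gucy1b3 encode an alpha and the beta subunit of soluble guanylate cyclase, the receptor of nitric oxide, which works as a dimer of both kinds. The promoter windows of this pair are shown because they are partners in 1 enzyme and neither passed the test. Each is the 150 bases before the RefSeq start in build GRCr8, written along the strand of the gene, with 4 motifs in capitals where they occur on either strand. They are the GC box GGGCGG, the box named for its letters CCAAT, the TATA box TATAAA and TGACG, the core of the cyclic AMP response element, and no 2 of them overlap in the windows shown. The Gucy1a2 window is chr8:8785062-8785211 on the plus strand, and the Gucy1b3 window, listed by RefSeq as Gucy1b1, is chr2:169696988-169697137 on the minus strand.
Gucy1a2 promoter window: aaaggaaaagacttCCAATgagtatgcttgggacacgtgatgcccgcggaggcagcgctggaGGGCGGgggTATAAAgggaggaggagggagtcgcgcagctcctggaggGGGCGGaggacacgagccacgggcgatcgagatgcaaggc
Gucy1b3 promoter window: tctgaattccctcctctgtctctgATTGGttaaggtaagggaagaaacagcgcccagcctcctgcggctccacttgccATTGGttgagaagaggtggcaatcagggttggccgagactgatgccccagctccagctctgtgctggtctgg

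The Gucy1a2 window holds the GC box at 2 places, the CCAAT box at 1 and the TATA box at 1. The Gucy1b3 window holds CCAAT, read on the other strand, at 2 places and none of the other 3 motifs. Of 33469 RefSeq promoters, 26.0% hold the GC box, 23.5% the CCAAT box, 8.0% the TATA box and 13.4% that core in the same window, and the core did not occur in either window shown. RefSeq windows were found for 7 of the 10 genes.

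Gucy1b3 levels in male hearts were 7.15, 7.33, 7.55, 7.34 and 6.75 in sham and 6.22, 6.89, 6.89, 6.36 and 6.69 in CLP, and landiolol hearts ran from 6.21 through 6.79 to 7.28. One sham heart, at 6.75, lay within the CLP range. The change was -0.61 (SE 0.21, adjusted p = 0.0546). In females the levels were 7.65, 7.32, 7.15, 7.48 and 7.34 in sham and 7.02, 6.61, 6.96, 7.13 and 5.86 in CLP, without overlap, as for 9.36% of genes, and landiolol hearts ran from 6.40 through 7.01 to 7.20. Female CLP vs sham was -0.67 (SE 0.22, adjusted p = 0.0725), or -0.46 without replicate 5 of the CLP group (0.119), and no comparison of Gucy1b3 passed in either sex.

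Gucy1a2 levels were 8.57, 7.61, 7.65, 7.51 and 8.03 in male sham and 7.75, 7.06, 6.74, 7.31 and 7.31 in male CLP hearts, and landiolol hearts ran from 7.44 through 7.56 to 8.08. Of the 5 CLP males, 4 lay below every other male heart. CLP vs sham was -0.64 (SE 0.22, adjusted p = 0.059) and CLP plus landiolol vs CLP was 0.43 (adjusted p = 0.361). In females the levels were 7.58, 7.91, 7.82, 8.11 and 8.35 in sham, 8.08, 6.83, 7.10, 7.12 and 8.12 in CLP, and 7.05, 7.73 and 8.05 with landiolol, with a CLP vs sham change of -0.50 (SE 0.26, adjusted p = 0.264).

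Smooth muscle markers, cells in which this enzyme is abundant, gave a summed log2 signal of 14.44 to 15.07 in male sham, 13.19 to 13.91 in male CLP and 13.52 to 14.45 in male CLP plus landiolol hearts, and of 13.65 to 14.63, 13.17 to 13.89 and 13.08 to 14.00 in females. Of the 5 markers, Smtn fell in male CLP vs sham, where 4.71% of all genes were lower, and none passed in females. In male CLP plus landiolol vs sham 1 of the 5 was lower, beside 2.08% of all genes. The part of these cells in the cyclase levels was not tested.

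Of 8 further genes of cyclic GMP signalling, 7 were on the array and 5 were tested, and Prkg1, the cyclic GMP-dependent kinase of smooth muscle and heart, passed in females. Its levels were 4.44, 4.39, 4.55, 4.78 and 4.28 in female sham hearts, 2 of them well above background, and 5.21, 5.33, 6.53, 5.77 and 5.31 in female CLP hearts. Landiolol hearts ran from 5.07 through 5.62 to 6.27, so that all septic females lay above all sham females. Among all genes, 9.36% did not overlap in female CLP vs sham and 10.9% in CLP plus landiolol vs sham. Prkg1 entered the female test through its septic arrays, the groups in which it was brighter, since 3 of the 5 sham arrays were not well above background. The fitted log2 change was 1.14 in CLP vs sham (SE 0.25, adjusted p = 0.00888, slides 1.13 and 1.1) and 1.17 in CLP plus landiolol vs sham (SE 0.24, adjusted p = 0.00442, slides 1.02 and 1.30). These sizes rested on dim sham signals, and no fold is given. After normexp they were 0.46 (adjusted p = 0.0245) and 0.43 (0.0217), and in the values deposited by the authors 0.35 (0.395) and 0.18 (0.671).

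The Prkg1 call in CLP vs sham was kept without CLP replicate 1 or 5 or landiolol replicate 2 or 5 and lost without each of the other 12 arrays, with an adjusted p of up to 0.0248, and under 7 of 12 other settings. The call in CLP plus landiolol vs sham was lost without sham replicate 1, 2, 3 or 5 or landiolol replicate 2 or 6, with an adjusted p of up to 0.0138, and with the row as a term (1.32, adjusted p = 0.294). Male CLP vs sham was 0.27 with an adjusted p of 0.373. Gucy1a3, the other common alpha subunit, had -0.27 in males (adjusted p = 0.257) and -0.53 in females (0.0398), and Pde5a, which degrades cyclic GMP, had -0.51 and -0.19, none of which passed. The 5 genes that remove nitric oxide or its adducts, among them Mb and Adh5, were tested and passed in no comparison.

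**Figure D4:**
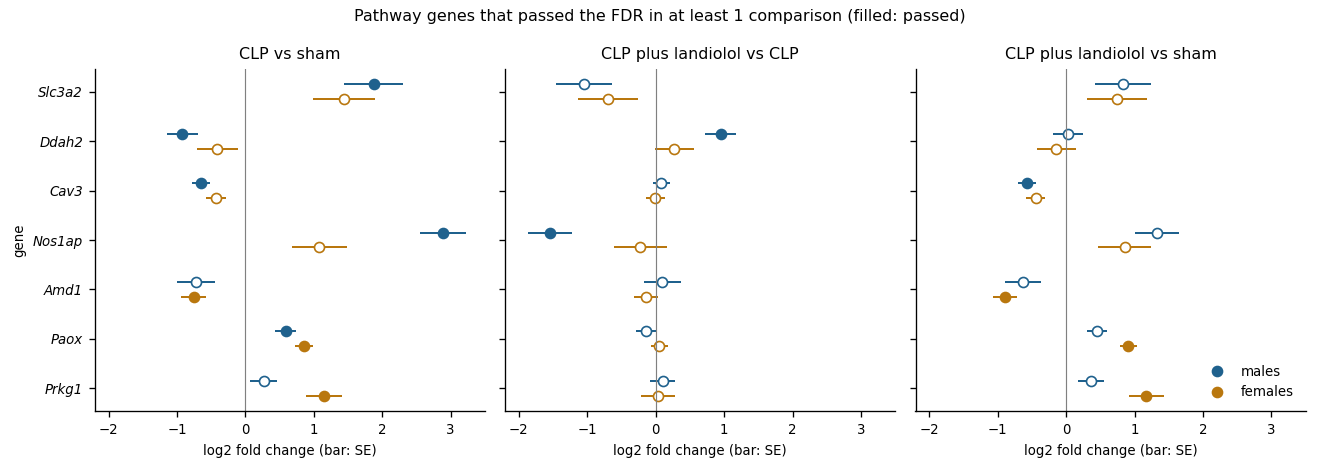
Log2 fold change with its SE for the 7 pathway genes beside the 10 that passed the FDR in at least 1 comparison, males in blue and females in ochre; filled points passed. Nos1ap in male CLP vs sham (2.88) has the highest value and Paox has filled points in both sexes.

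In all, 52 pathway genes beside the 10 were looked up, 51 were on the array and 44 were tested. Of these 44, 5 passed in male CLP vs sham (3 higher and 2 lower), where 4.18% of all genes were higher and 4.71% lower. In female CLP vs sham 3 passed (2 higher and 1 lower), beside 2.14% and 2.07% of all genes. In CLP plus landiolol vs CLP 2 passed in males (1 higher and 1 lower), beside 1.03% and 0.741%. In females 0 passed, beside 0.0617% and 0.037%. In CLP plus landiolol vs sham 1 passed in males, as lower, beside 2.75% of genes higher and 2.08% lower. In females 3 passed (2 higher and 1 lower), beside 3.41% and 2.59%. Prkg1 is among the female genes higher than sham in both comparisons, though it entered that test through its brighter septic groups. CLP vs sham and CLP plus landiolol vs sham share their sham arrays, so the values of a gene in them are not independent.

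The difference between the sexes was tested as an interaction over the 32 arrays normalised together. Of the 10 genes, 8 entered it, Nos1 and Arg2 being too dim. Nos2 entered it through its female sham arrays alone, so its values compare signals that were mostly under the background limit. None of the 8 passed at an FDR of 5%, be it the change with CLP or that between the septic groups, and neither did any of the 16809 genes tested (0% in both), with 995 and 1307 of 26490 probes at an unadjusted p under 0.05. In the table deposited by the authors 10 probes passed for the change with CLP, and 1 passed for it without female sham replicate 4. For the change between the septic groups 1 passed without female landiolol replicate 4, and the other settings run for this test gave 0 in both. None of these calls was of the 10 genes. Gch1 had the widest gap in CLP vs sham, males exceeding females by 0.72 (SE 0.49, 95% interval -0.29 to 1.72, adjusted p = 1). For Arg1, which passed in males and not in females, male minus female was -0.39 (SE 0.68, 95% interval -1.78 to 1.0).

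By mean change in CLP vs sham over both sexes, Arg1 (1.41), Gucy1b3 (0.64) and Gch1 (0.60) had the largest sizes of the genes tested in both sexes, followed by Gucy1a2 (0.57) and Nos3 (0.33), and Ass1 (0.21) and Odc1 (0.15) had the smallest. Neighbours from Gucy1b3 to Gucy1a2 differed by less than their SEs. The genes whose 4 changes against sham, in 2 comparisons and 2 sexes, lay nearest were Ncapg2 and Col14a1 for Arg1, at Euclidean distances of 0.16 and 0.20, Plgrkt and Stx7 for Gucy1b3, at 0.07 and 0.08, and LOC103693523 and Cenpa for Gch1, at 0.31 and 0.37. The search covered 15863 genes, and the 4 changes share sham arrays within a sex.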

How the data were processed

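The authors deposited the output of Agilent Feature Extraction 10.5 for each of the 32 arrays, with a background-subtracted intensity for every spot, and a table of quantile-normalised log2 values whose offset before the log2, if any, is unknown. Here control spots were dropped, spots marked as outliers were left out (213 missing probe values), the log2 of the processed intensity was taken and replicate spots were averaged. Quantile normalisation was run on the 16 arrays of each sex, and dim probes were filtered as described. Comparisons used limma 3.58.1 in R 4.3.3, fitted on the 3 groups of a sex (eBayes without a trend), with Benjamini-Hochberg adjustment over all probes kept. The package data.table (version 1.17.8) read the files, and figures were drawn with Python 3.11.15 and matplotlib 3.10.9. A gene was read from its probe with the highest mean raw signal over all arrays, and shares of genes called count 1 probe per named gene. The fits were tested on simulated data. The annotation versions named 11067 probes differently. Named are all 10 genes, every pathway gene that passed in a comparison, and the 2 nearest genes of the 3 with the largest change. Single pathway genes that did not pass and single markers were picked after their values were seen, as examples. The genes, pathway lists and marker lists were chosen with earlier results of these data known. Alternatives were another scaling (75th percentile), normexp, other filters, groups, terms for slide, row and order of days, the deposited table, SAM, other FDR levels, any probe of a gene, and leaving out each array. For the order of days, the digits that end each sample title were read as dates. The labels do not say what those digits stand for. Replicate numbers follow the order of the samples and pair nothing.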

Additional observations from a re-analysis of the deposited data

Results flagged for a closer look

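Among the 60 groups of arrays, 10 genes in 3 groups of each sex, 8 held a single array far from the rest of its group by Dixon's criterion, which chance gives in about 1 of 20 groups. Arg1 had 2 of them, both in males: CLP replicate 2 at 4.76, where the nearest array was at 6.71, and sham replicate 2 at 8.71. The change of Arg1 in male CLP vs sham without the first is -1.19 (adjusted p = 0.00859) and without the second -1.42 (adjusted p = 0.0272). Odc1 had 3: male sham replicate 1 at 10.14, female sham replicate 1 at 9.80 and female CLP plus landiolol replicate 4 at 9.40. Nos2 had male sham replicate 4 at 5.66. Arg2 had male CLP plus landiolol replicate 4 at 3.45 and female CLP plus landiolol replicate 2 at 2.14, neither well above background. No cause was tested for any of these arrays.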

How the results depend on the processing

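Of the 45 changes of the 10 genes, 1353 alternative values were computed and 73 changed sign, none of them passing the test in either fit. The number of the 10 genes that passed in male CLP vs sham, 1 as reported, was 0 with no filter, with only the groups compared, with the slide as a term and with the row as a term, and ranged from 0 to 1 with 1 array left out. In male CLP plus landiolol vs sham it was 0 as reported and 1 after normexp, with only the groups compared, in SAM and with the FDR levels exchanged, and ranged from 0 to 1 with 1 array left out. In female CLP plus landiolol vs sham it was 0, and 1 in SAM, where Nos2 passed.

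The pathway genes beside the 10 that passed numbered 5 in male CLP vs sham. They were 2 with no filter, 3 with only the groups compared, 3 with the row as a term and 10 with the FDR levels exchanged, and 2 to 7 with 1 array left out. In male CLP plus landiolol vs CLP they were 2, but 1 with no filter and 0 with only the groups compared, with the order of days as a term and with the FDR levels exchanged, and 0 to 3 with 1 array left out. In male CLP plus landiolol vs sham they were 1, but 2 with only the groups compared, with a trend in eBayes, in the deposited table and in SAM, and 4 with the FDR levels exchanged, and 0 to 2 with 1 array left out. In female CLP vs sham they were 3, but 1 with no filter, with only the groups compared, with the slide as a term and with the row as a term, and 5 with the FDR levels exchanged, and 1 to 5 with 1 array left out. In female CLP plus landiolol vs sham they were 3, but 0 with the row as a term and 5 with the FDR levels exchanged, and 2 to 4 with 1 array left out. The cause was not tested. With no filter and with only the groups compared, the number of probes or of arrays in the fit differs by construction.

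No paired analysis was possible because the labels give no replicate numbers that the groups share. Signal over background limits Nos1, Nos2, Arg2 and Prkg1, of which Nos1 and Arg2 could not be tested in either sex and Nos2 not in males. Each group had 5 or 6 arrays, selected on RNA quality. The row of the slide and the group cannot be told apart between female sham and female landiolol arrays.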
